A study of Mus musculus with 13 samples.

Results

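A set of 35 excision and mismatch repair genes, of 49585 genes with a transcript in the data, was examined in oocytes of irradiated mouse ovaries. The members follow a list of gene names, drawn up with earlier results of these data known, and the rule itself used no measured value. They comprised 13 genes of nucleotide excision repair, 19 of base excision repair and 3 of mismatch repair. All 35 were found once by symbol, and all 35 kept enough reads to be tested in each comparison.

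The oocytes came from ovaries of CD-1 mice at postnatal day 5, which were cultured overnight, γ-irradiated and dissociated with trypsin. Ovaries were pooled for each time point. After 0.5 Gy there were 8 libraries, namely 2 replicates for each of 0, 1 and 4 h and a single library for both 2.5 and 6 h. After 0.2 Gy there were 5 libraries, 1 for each of the same times, with no replicates. The 0 h libraries were taken before irradiation and serve as the unirradiated controls, and no genotype or drug differed between groups. In the sample labels replicate 1 of 0.5 Gy is of the first generation, replicate 2 and the single libraries of 0.5 Gy are of the second, and all libraries of 0.2 Gy are of the third. Dose and generation therefore cannot be told apart, and the labels do not say whether replicates came from separate animals. The p-values thus measure the spread between these libraries, which may be technical. Where libraries of several times are pooled on 1 side of a comparison, they are not replicates of a condition. The spread then also holds any change between those times.

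Excision repair removes damaged or wrong bases from 1 strand and copies the other strand to fill the gap. Base excision repair removes small lesions such as oxidised bases and seals single-strand breaks, both of which ionising radiation produces directly. Nucleotide excision repair cuts out a stretch of DNA around bulky lesions, and mismatch repair corrects errors left by replication. Oocytes of small follicles are among the cells most sensitive to double-strand breaks, which activate TAp63α and apoptosis, and the lower dose asked whether slower death leaves room for a repair response.

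The libraries held 15709549 to 30430104 estimated reads, with replicate 2 of 0 h after 0.5 Gy the lowest. Levels over time are given as CPM, a gene's share of the reads of its library scaled by TMM to a common composition. Levels between genes are given as TPM, a transcript's share of all transcripts after division by length, summed per gene. Mdm2, a target gene of the p53 family, serves as a check of the response. It measured 58.0 and 64.4 CPM before irradiation, 52.9 and 75.6 CPM by 1 h, 267 CPM by 2.5 h, 234 and 473 CPM by 4 h and 589 CPM by 6 h after 0.5 Gy, and 51.5 CPM before irradiation, then 59.2, 103, 255 and 230.2 CPM in order of time after 0.2 Gy. All 10 oocyte markers were present in every library, with summed levels of 726 to 1260.3 TPM. None of the markers of other cells was at 0 throughout, and their sums were 269 to 535 TPM for granulosa cells, 262 to 468 TPM for stroma and 1356 to 8218 TPM for red blood cells. Replicate 2 of 0 h after 0.5 Gy stood apart with a leukocyte marker sum of 269.8 TPM, against 12.4 to 28.7 TPM in the other 12 libraries. Most of this sum was S100a8 (184 TPM) and S100a9 (65.9 TPM). Lyz2 was also at its highest there (18.5 TPM), but Ptprc (0.758 TPM) was within the range of the other libraries. Cd68 (0.293 TPM) was at its lowest, so the list did not rise as a whole. The 0 and 1 h libraries of 0.2 Gy stood apart with 42767 and 42984 genes detected, against 36343 to 39439 in the other 11. In such bulk RNA, fewer cells of a type and less RNA per cell cannot be told apart.

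Ercc5 was the repair gene that rose with time after irradiation. It encodes XPG, the nuclease that makes the 3′ cut of nucleotide excision repair, and it lies at chr1:44147744-44181260 on the plus strand (GRCm38). After 0.5 Gy it measured 22.5 and 28.2 CPM before irradiation, 27.4 and 26.9 CPM by 1 h, 31.4 CPM by 2.5 h, 49.4 and 55.3 CPM by 4 h and 62.4 CPM by 6 h, with replicate 1 given before replicate 2. After 0.2 Gy it measured 21.4 CPM before irradiation, then 23.3, 27.0, 34.8 and 33.3 CPM in order of time. Every library of 4 and 6 h lay above every library of 0 and 1 h, with 33.3 CPM as the lowest late value and 28.2 CPM as the highest early value. The share of all genes separated in this way was not counted, so the separation describes the values only. In the fit of all 13 libraries with generation as a term, its log2 fold change for 4 and 6 h against 0 and 1 h was 0.89 (SE 0.13, 95% interval 0.61 to 1.17), with an adjusted p of 0.0147 in edgeR's quasi-likelihood test. It was 1 of 42 genes of 28493 past an adjusted p of 0.05 in that comparison, a background of 0.147%, and ranked 19 by p. The other 34 members did not pass at any fold. Under the stricter rule used below, which also asks for a log2 fold change over 1, 0 of 35 members were called against 0.123% of all genes tested, with 3 of 35 members (8.57%) at an unadjusted p under 0.05 beside 7.58% of all genes, and 0 called by DESeq2.

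The rise of Ercc5 depended on 0.5 Gy libraries for its adjusted p. Without 1 h replicate 2, 4 h replicate 1, 4 h replicate 2 or the 6 h library of 0.5 Gy, the log2 fold change stayed between 0.83 and 0.88 with adjusted p between 0.0503 and 0.119, while the other 9 fits without 1 library passed. Among these were the fits without the libraries that stood apart, with log2 fold changes of 0.88 without 0 h replicate 2 of 0.5 Gy (adjusted p = 0.0428, edgeR), and 0.89 and 0.93 without 0 h and 1 h of 0.2 Gy (adjusted p = 0.0413 and 0.0292, edgeR). Granulosa markers were higher in the same comparison for 7 of 7 genes (median log2 fold change 0.28) and red blood cell markers for 5 of 5 (median 0.67), with 0 of either list past the adjusted p in edgeR. At unadjusted p under 0.05 there were 1 and 4 of them. The summed granulosa level was 292 to 483 TPM at 0 and 1 h and 294 to 535 TPM at 4 and 6 h. The red blood cell sum was 3076 to 4662 TPM and 3708 to 8218 TPM, with 4039 TPM at 6 h after 0.5 Gy and 3708 TPM at 6 h after 0.2 Gy. Against 0 h after 0.5 Gy, red blood cell markers were higher for 5 of 5 at 4 h (median 0.82) and lower for 5 of 5 at 6 h (median -0.32). Oocyte markers were lower for 8 of 10 genes in the 13-library fit (median -0.085) and higher for 2. The part of any of these cell types in the rise of Ercc5 was not tested.

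**Figure D1:**
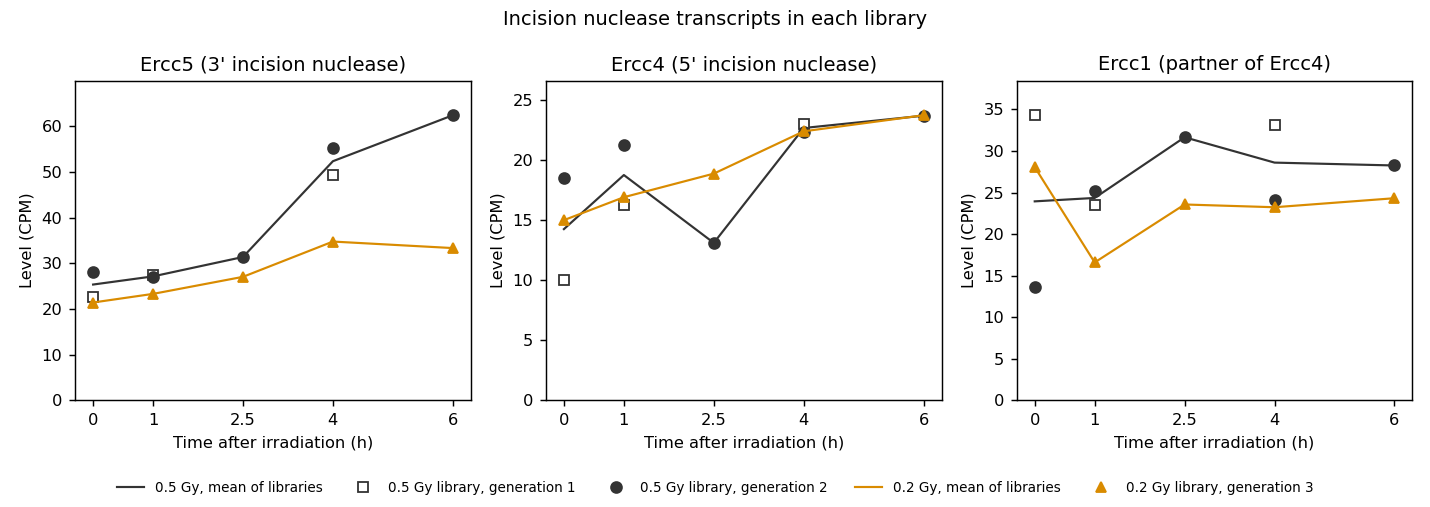
Level in CPM (vertical axis, from 0) of Ercc5, Ercc4 and Ercc1 against time after irradiation in hours. Points are libraries, marked by dose and generation, and lines join the means at each dose. Ercc5 stood at 49.4 to 62.4 CPM in the 3 libraries of 4 and 6 h after 0.5 Gy, above its 33.3 and 34.8 CPM at those times after 0.2 Gy, whereas the replicates of Ercc1 at 0 h lay 13.6 and 34.3 CPM apart.

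The reads of Ercc5 came from 1 main transcript. Ercc5-201, a protein-coding transcript of 3907 bases, held 85.5% of its estimated reads. Its level after 0.5 Gy was 1.51 and 1.57 TPM before irradiation, 1.86 and 1.90 TPM by 1 h, 2.56 TPM by 2.5 h, 3.51 and 3.64 TPM by 4 h and 4.85 TPM by 6 h. After 0.2 Gy it was 1.49 TPM before irradiation, then 1.67, 1.95, 2.94 and 2.38 TPM in order of time. Replicates of this transcript were close to each other at each time. Summed over all transcripts of the gene they were not, with 1.64 and 4.88 TPM before irradiation, 3.59 and 2.60 TPM by 1 h, 3.21 TPM by 2.5 h, 4.93 and 8.73 TPM by 4 h and 8.78 TPM by 6 h after 0.5 Gy and 3.06 TPM before irradiation, then 3.99, 3.60, 3.93 and 3.56 TPM in order of time after 0.2 Gy, so that on this scale the values after 0.2 Gy lay between 3.06 and 3.99 TPM with no order in time. No sequence of 30 bases, the read length, in an Ercc5 transcript was shared with a transcript of another gene, and no exon overlapped one. When counts were instead rescaled from TPM, which gives short transcripts such as one of Ercc5 (532 bases, 23.1% of the TPM but 2.75% of the reads) more weight, the log2 fold change was 0.79 with an adjusted p of 0.472.

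The 250 bases before the RefSeq start of Ercc5 are printed because it is the member that rose, beside the bases before Ercc4, the other incision nuclease with all libraries of 4 and 6 h above those of 0 and 1 h. The Ercc4 stretch ends where the Ensembl gene begins. Both are given 5′ to 3′ on the plus strand (GRCm38.p6), with any CCAAT or GGGCGG motif, on either strand, in capitals.
Ercc5, chr1:44147494-44147743: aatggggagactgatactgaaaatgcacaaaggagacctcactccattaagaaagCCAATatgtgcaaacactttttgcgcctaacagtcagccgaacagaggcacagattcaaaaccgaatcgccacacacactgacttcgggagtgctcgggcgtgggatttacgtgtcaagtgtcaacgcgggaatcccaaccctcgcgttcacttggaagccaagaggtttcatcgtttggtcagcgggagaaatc
Ercc4, chr16:13109486-13109683: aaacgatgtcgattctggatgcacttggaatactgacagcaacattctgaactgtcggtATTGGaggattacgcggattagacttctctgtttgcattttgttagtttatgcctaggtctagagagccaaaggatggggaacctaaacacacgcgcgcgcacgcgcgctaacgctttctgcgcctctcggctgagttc
In windows from 250 bases before to 50 after the start, 29 of the 35 members could be matched, by 34 windows. CCAAT was present in the windows of 17 of these 29 genes, Ercc5 and Ercc4 among them, and in 37.4% of all 32851 windows. GGGCGG was present for 22 of the 29, but neither in the window of Ercc5 nor in that of Ercc4, and in 35.7% of all windows. The p53 half-site, the decamer to which the p53 family binds in pairs, was found in the windows of 4 members and in 8.36% of all windows. These 4 are printed with 10 bases on each side, 5′ to 3′ on the minus strand of GRCm38.p6, on which all 4 genes lie, with the half-site in capitals.
Neil3, chr8:53639033-53639062: gtttgctggtGGGCAAGCCTaggctgggcg
Neil1, chr9:57148258-57148287: gactgctccaAAGCTTGCCCaacacccggg
Fen1, chr19:10204406-10204435: acacggtaagGGGCTTGCTTtcccgtccct
Cetn2, chrX:72918480-72918509: ttgcccaatgAGGCTAGTCTttggctgccg
The half-sites of Neil3 and Neil1 began 13 and 28 bases after the start, and those of Fen1 and Cetn2 32 and 155 bases before it. A full site of 2 half-sites up to 13 bases apart was in none of the 34 windows and in 0.0731% of all. None of the 4 genes passed an adjusted p of 0.05 over time, and a match describes letters in this window, not binding.

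The other incision genes moved less. Ercc4 encodes XPF, the nuclease that makes the 5′ cut, at chr16:13109684-13150617. It measured 10.02 and 18.5 CPM before irradiation, 16.3 and 21.2 CPM by 1 h, 13.1 CPM by 2.5 h, 23.0 and 22.3 CPM by 4 h and 23.7 CPM by 6 h after 0.5 Gy. The values after 0.2 Gy were 15.0 CPM before irradiation, then 16.9, 18.9, 22.4 and 23.7 CPM in order of time. All 5 libraries of 4 and 6 h were above the 6 of 0 and 1 h, with 22.3 against 21.2 CPM at the border. How many of all genes are separated in this way was not counted. Its log2 fold change was 0.48 (SE 0.18, adjusted p = 0.540, edgeR), so it did not pass. Ercc1 (chr7:19344778-19356524), the partner that holds XPF on DNA, had the highest summed level of the nucleotide excision genes, 39.6 ± 8.71 TPM (SD, n = 13), although 92.2% of it lay in transcripts under 500 bases. Over time it measured 34.3 and 13.6 CPM before irradiation, 23.5 and 25.2 CPM by 1 h, 31.7 CPM by 2.5 h, 33.1 and 24.1 CPM by 4 h and 28.3 CPM by 6 h after 0.5 Gy. The 0.2 Gy libraries gave 28.1 CPM before irradiation, then 16.6, 23.6, 23.2 and 24.3 CPM in order of time. Early and late values overlapped.

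Genes that recognise bulky lesions did not change detectably. Ddb2 and Xpc, which find such lesions across the genome, are often listed as p53 target genes. Whether they respond to the p53 family in mouse was not examined here, so their values do not show that a response was missing. Ddb2 (chr2:91211572-91236982) measured 27.8 and 36.7 CPM before irradiation, 27.5 and 37.7 CPM by 1 h, 36.6 CPM by 2.5 h, 36.8 and 36.7 CPM by 4 h and 27.4 CPM by 6 h after 0.5 Gy. The 0.2 Gy series read 39.9 CPM before irradiation, then 51.6, 17.5, 35.9 and 32.7 CPM in order of time. The libraries of both sides overlapped, with a log2 fold change of -0.13 (95% interval -0.56 to 0.30) in the 13-library fit. Its exons share 20.8% of their 30-base sequences with Acp2 on the opposite strand, and counting by strand was not stated, so its reads are uncertain. Xpc (chr6:91489305-91515888) measured 64.4 and 48.9 CPM before irradiation, 50.8 and 49.9 CPM by 1 h, 78.1 CPM by 2.5 h, 62.2 and 70.1 CPM by 4 h and 58.8 CPM by 6 h after 0.5 Gy. In the 0.2 Gy libraries it stood at 36.0 CPM before irradiation, then 53.7, 48.1, 60.9 and 34.7 CPM in order of time. Its log2 fold change was 0.20 (95% interval -0.16 to 0.56), and the highest value, 78.1 CPM, was that of 2.5 h after 0.5 Gy. In the same fit, Ddb1, the partner of Ddb2, gave 0.12. Rad23b and Cetn2, which stabilise XPC, gave -0.16 and -0.12.

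No change was detected for the genes that act at stalled RNA polymerase and open the helix. Ercc6 (CSB, chr14:32513521-32580990) had the lowest summed level of this pathway, 1.99 ± 0.90 TPM. It measured 22.3 and 36.3 CPM before irradiation, 15.8 and 29.6 CPM by 1 h, 31.7 CPM by 2.5 h, 32.6 and 27.2 CPM by 4 h and 32.0 CPM by 6 h after 0.5 Gy. After 0.2 Gy it gave 25.6 CPM before irradiation, then 21.4, 26.9, 34.7 and 27.2 CPM in order of time. Replicates at 0 and 1 h were farther apart than the means of any time points at 0.5 Gy, and the log2 fold change of 0.29 (SE 0.17) had an adjusted p of 0.732 in edgeR. For Ercc8 (CSA) the log2 fold change was 0.22. It was 0.10 for Xpa, which verifies the lesion, and 0.12 and -0.022 for Ercc3 and Ercc2, the helicases of TFIIH. Ercc2 had the fewest reads of the pathway, 1.70 to 6.62 CPM.

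Among the base excision genes, the 2 with the largest rise late after 0.5 Gy were Neil1 and Ogg1, glycosylases for oxidised bases. The class did not rise as a whole. In the same comparison Neil2 and Neil3, of the same class, gave log2 fold changes of -0.066 and -0.30, the latter the lowest of all members. Mutyh gave 0.023. Neil1 (chr9:57142800-57148305) measured 6.38 and 4.48 CPM before irradiation, 9.75 and 9.52 CPM by 1 h, 9.73 CPM by 2.5 h, 9.89 and 13.7 CPM by 4 h and 10.2 CPM by 6 h after 0.5 Gy. It measured 6.49 CPM before irradiation, then 5.68, 7.89, 9.20 and 8.91 CPM in order of time after 0.2 Gy. Both 0 h libraries of 0.5 Gy were below the other 6, among which those of 1 h reached the level of 2.5 h. The log2 fold change was 0.53 (SE 0.30, adjusted p = 0.634, edgeR) late against early at 0.5 Gy, and 0.58 (adjusted p = 0.582, edgeR) in the 13-library fit. Ogg1 (chr6:113326972-113335068), which removes 8-oxoguanine, measured 4.65 and 4.07 CPM before irradiation, 7.44 and 8.25 CPM by 1 h, 8.34 CPM by 2.5 h, 8.10 and 6.75 CPM by 4 h and 11.5 CPM by 6 h after 0.5 Gy. At 0.2 Gy the values were 8.97 CPM before irradiation, then 5.13, 9.04, 10.2 and 8.55 CPM in order of time. The 0 h libraries of 0.5 Gy were again the lowest, and early and late overlapped, with a log2 fold change of 0.50 (SE 0.32, adjusted p = 0.671, edgeR) late against early at 0.5 Gy. These were low levels, and neither gene passed.

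Xrcc1 and Parp2 act on single-strand breaks, Xrcc1 as a scaffold and Parp2 as a sensor. Xrcc1 (chr7:24546289-24573440) followed Neil1 and Ogg1 in size of change at 0.5 Gy, with 0.49 (SE 0.22, adjusted p = 0.555, edgeR), against -0.064 at 0.2 Gy. Its libraries held 33.1 and 22.2 CPM before irradiation, 29.8 and 37.1 CPM by 1 h, 51.1 CPM by 2.5 h, 32.1 and 54.6 CPM by 4 h and 33.8 CPM by 6 h after 0.5 Gy. The lower dose gave 39.7 CPM before irradiation, then 35.9, 35.7, 39.3 and 33.1 CPM in order of time. The 2 high values, 51.1 and 54.6 CPM, were both of the second generation, and replicate 1 of 4 h stood at 32.1 CPM, within the early range. Parp2 (chr14:50807841-50821301) had the highest summed level of all members, 192 ± 26.4 TPM. Of this, 80.3% was credited to a retained-intron transcript of 220 bases with 7.94% of the reads, and the transcript with most reads, Parp2-201, was at 7.37 ± 0.847 TPM. In CPM, Parp2 stayed within 67.4 to 90.8. It measured 90.8 and 71.9 CPM before irradiation, 78.1 and 67.4 CPM by 1 h, 77.3 CPM by 2.5 h, 90.3 and 78.5 CPM by 4 h and 72.3 CPM by 6 h after 0.5 Gy. At 0.2 Gy it measured 73.9 CPM before irradiation, then 86.4, 76.6, 78.2 and 78.0 CPM in order of time. No time point stood out, and the 95% interval of its log2 fold change in the 13-library fit was -0.17 to 0.27.

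Smug1 (chr15:103153290-103167092), a glycosylase for uracil, had the lowest summed level of the base excision genes, 1.84 ± 0.425 TPM. It measured 24.2 and 23.0 CPM before irradiation, 12.4 and 20.4 CPM by 1 h, 18.8 CPM by 2.5 h, 14.0 and 19.7 CPM by 4 h and 13.2 CPM by 6 h after 0.5 Gy. At 0.2 Gy it stood at 17.7 CPM before irradiation, then 16.0, 16.5, 14.9 and 14.1 CPM in order of time. The sides overlapped, and the log2 fold change of -0.33 (95% interval -0.73 to 0.079) did not pass. Of the other glycosylases, in the same fit Ung, for uracil, gave 0.20, Tdg and Mbd4, for bases mispaired with guanine, 0.21 and 0.11, Mutyh, for adenine opposite 8-oxoguanine, -0.15, and Neil2 0.12. Of the 35 members 8 had replicate 2 above replicate 1 at all of 0, 1 and 4 h after 0.5 Gy (Ung, Tdg, Pms2, Ddb1, Lig1, Fen1, Neil3 and Msh3). In 3 it was below at all of them (Rad23b, Xpa and Parp2), and the other 24 were mixed. The widest gap was that of Ung (40.6 against 18.9 CPM before irradiation, 52.7 against 27.4 by 1 h, 55.1 against 30.2 by 4 h). The share of all genes that keep 1 direction was not counted, so these counts are not a result about the members. Downstream, Apex1, the nuclease that cuts at sites without a base, gave a log2 fold change of 0.055, Aptx, which cleans failed ligation ends, 0.028, and Parp1, the main break sensor, 0.013. For Polb and Fen1, which fill the gap and trim the flap, the values were -0.14 and 0.050, and for Lig1 and Lig3, which seal the strand, -0.12 and 0.21. The 95% intervals of 16 of the 19 base excision genes lay within a log2 fold change of 1 in either direction.

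**Figure D2:**
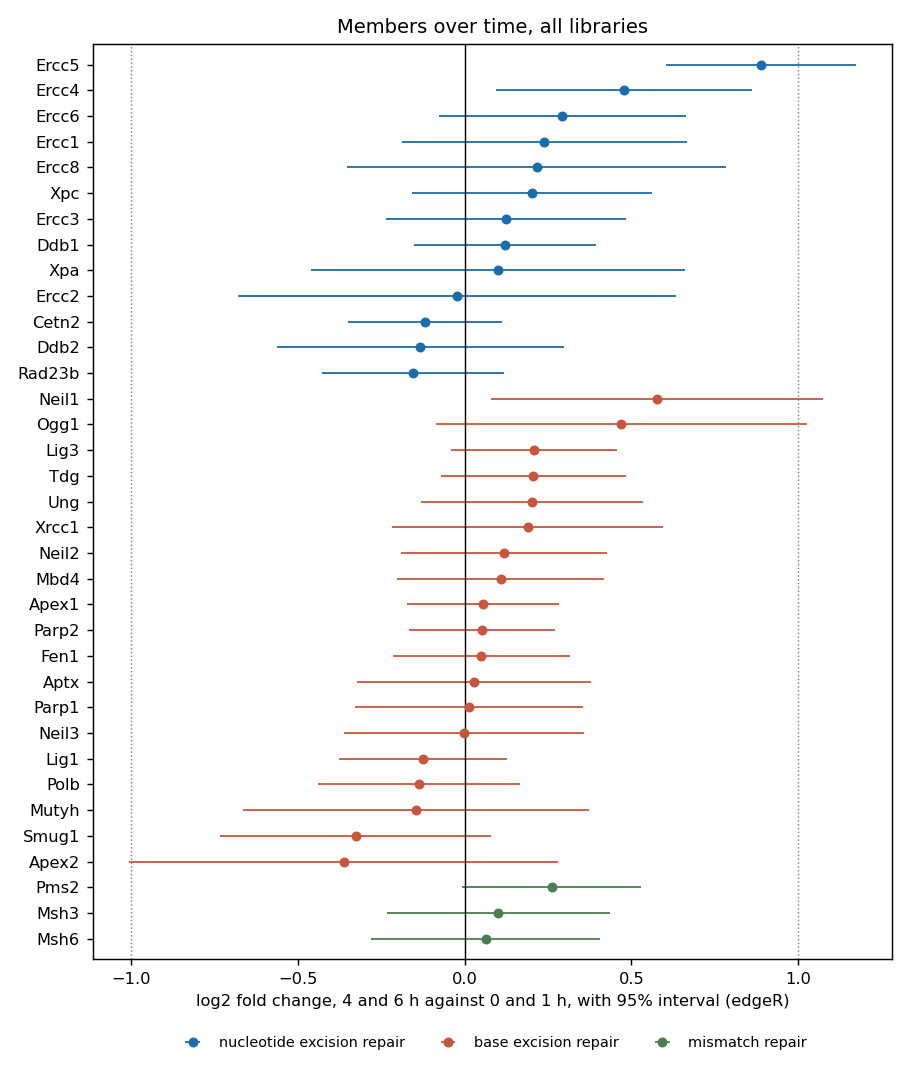
Log2 fold change of each member (horizontal axis) for 4 and 6 h against 0 and 1 h in the fit of all 13 libraries, with 95% intervals as bars, ordered by size within each pathway and coloured by pathway. Dotted lines mark a log2 fold change of 1 in either direction. Ercc5 lies farthest to the right at 0.89, and the intervals of 31 of 35 members lie between the dotted lines.

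The 3 mismatch repair genes gave small positive differences that did not pass. Msh6 (chr17:87975062-87990892), which recognises single mispaired bases, measured 42.2 and 76.3 CPM before irradiation, 80.2 and 75.8 CPM by 1 h, 88.1 CPM by 2.5 h, 60.3 and 83.0 CPM by 4 h and 72.4 CPM by 6 h after 0.5 Gy. At 0.2 Gy it stood at 51.7 CPM before irradiation, then 57.7, 59.5, 71.8 and 49.4 CPM in order of time. Replicate 1 of 0 h, at 42.2 CPM, was the lowest of the 13 libraries, and without it the log2 fold change late against early at 0.5 Gy turned from 0.14 to -0.027. Msh3 (chr13:92211872-92355003), which recognises larger loops, measured 57.1 and 61.6 CPM before irradiation, 47.6 and 47.9 CPM by 1 h, 75.1 CPM by 2.5 h, 40.7 and 52.04 CPM by 4 h and 63.6 CPM by 6 h after 0.5 Gy. At the lower dose its values were 48.7 CPM before irradiation, then 55.2, 62.4, 79.0 and 58.6 CPM in order of time. The highest values were those of 2.5 h at 0.5 Gy and 4 h at 0.2 Gy, and without 2.5 h the change at 0.5 Gy turned from 0.11 to -0.043. Pms2 (chr5:143909964-143933968), which nicks the strand to be corrected, measured 28.0 and 46.2 CPM before irradiation, 35.6 and 46.5 CPM by 1 h, 42.6 CPM by 2.5 h, 47.1 and 53.8 CPM by 4 h and 44.4 CPM by 6 h after 0.5 Gy. At 0.2 Gy it measured 47.7 CPM before irradiation, then 45.3, 52.9, 57.9 and 51.2 CPM in order of time. Early and late values overlapped, with a log2 fold change of 0.26 (SE 0.13, adjusted p = 0.671, edgeR) in the 13-library fit. Summed TPM was highest for Pms2, 14.0 ± 3.9, and lowest for Msh6, 5.19 ± 1.28 (SD, n = 13).

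The late side at 0.5 Gy (4 libraries of 2.5, 4 and 6 h) was also set against its early side (4 libraries of 0 and 1 h). No member was called, against a background of 0.128% (29 of 22588 genes, edgeR). A single member, Ercc5, had an unadjusted p under 0.05, beside 9.06% of all genes (log2 fold change 0.91, SE 0.21, adjusted p = 0.187 in edgeR). DESeq2 called no member either, and gave Ercc5, whose fold is under the limit of the rule, an adjusted p of 0.011. In this comparison 31 of the 35 members had a 95% interval within a log2 fold change of 1 in either direction, as did 47.8% of all genes tested. For scale, Cdkn1a, another p53 target, gave 3.32 (SE 0.36) and Mdm2 2.63 (SE 0.29), with adjusted p of 0.00362 and 0.00362 in edgeR.

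Against 0 h alone, no member and no gene at all was called by edgeR at 1, 2.5, 4 or 6 h after 0.5 Gy (0% of 28468 genes each time). These contrasts rest on 3 residual degrees of freedom, and 1133, 1590, 1658 and 1691 genes had an unadjusted p under 0.05 (3.98%, 5.59%, 5.82% and 5.94%). With generation as a block 0, 1, 6 and 7 genes were called, and without 0 h replicate 1 there were 4, 7, 10 and 6, with no member among them. Among the members, 1, 0, 2 and 4 had an unadjusted p under 0.05 at these times in edgeR, and DESeq2 called 0. Ercc5 gave log2 fold changes of 0.12, 0.34, 1.08 and 1.35 at the 4 times (SE 0.28 to 0.34, edgeR). The values at 4 and 6 h were its largest, but they were not called and were not the only large ones. Neil1 gave 1.15 at 4 h, and at 6 h Ercc8 gave 1.19 and Xpa -1.05. Ercc8 measured 7.19 and 6.52 CPM before irradiation, 16.3 and 11.4 CPM by 1 h, 11.3 CPM by 2.5 h, 10.1 and 10.5 CPM by 4 h and 15.1 CPM by 6 h after 0.5 Gy. At 0.2 Gy it measured 15.8 CPM before irradiation, then 8.77, 15.1, 14.7 and 13.6 CPM in order of time. Its highest value there was that of the single library before irradiation. The difference between doses in its late against early change was 0.0019 (SE 0.57), so a different course at 0.2 Gy was not shown. Ogg1 gave 1.45 (SE 0.49) at 6 h.

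The late side at 0.2 Gy (4 and 6 h) was set against the early side (0 and 1 h), with the spread taken from 11 libraries of both doses. No member was called, against 0.0462% of the 28162 genes tested in edgeR, 3 of 35 members (8.57%) had an unadjusted p under 0.05, near the 7.29% of all genes, and DESeq2 called 0. These 3 were Ercc5 at 0.61 (SE 0.21, adjusted p = 0.638, edgeR), Neil3 at 0.55 (SE 0.22) and Apex2 at -1.14 (SE 0.39). Neil3 and Apex2 were singled out after their values were seen, and Ercc5 for its change at 0.5 Gy and in the fit that holds these libraries.

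The difference between doses in late against early was called for 0 of 35 members, beside 0.032% of all genes (edgeR, with 2 of 35 members, or 5.71%, at an unadjusted p under 0.05 beside 8.14% of all genes, and 0 called by DESeq2). For Ercc5 it was -0.48 (95% interval -1.06 to 0.10, adjusted p = 0.660, edgeR), so a smaller rise at 0.2 Gy was not shown, although its 2 late libraries there were below the 3 of 4 and 6 h at 0.5 Gy. Neil3, a glycosylase expressed mainly in dividing cells, gave 0.86 (SE 0.27, adjusted p = 0.538, edgeR). After 0.5 Gy it measured 43.9 and 48.5 CPM before irradiation, 36.2 and 44.2 CPM by 1 h, 36.0 CPM by 2.5 h, 31.4 and 36.7 CPM by 4 h and 36.5 CPM by 6 h. After 0.2 Gy it measured 29.7 CPM before irradiation, then 36.6, 32.4, 47.1 and 50.2 CPM in order of time. At 0.2 Gy both late libraries were above both early ones, and at 0.5 Gy the sides overlapped. The separate log2 fold changes were 0.55 at 0.2 Gy and -0.30 at 0.5 Gy (2.5 h included). With 2 libraries on each side at 0.2 Gy, other members were separated too, such as Ercc6 and Pms2 above and Ddb2 and Smug1 below. The share of all genes separated in this way was not counted, so the separation is not particular to Neil3.

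Apex2, a relative of Apex1 that processes ends, gave a difference between doses of -1.26 (SE 0.49, adjusted p = 0.564, edgeR). Its level was 31.2 and 31.4 CPM in the 0 and 1 h libraries of 0.2 Gy and between 8.01 and 17.1 CPM in the other 11. These high values belonged to 1 transcript. Apex2-203, of 4742 bases, was at 1.72 and 1.79 TPM in those 2 libraries and between 0.0359 and 0.340 TPM in the other 11. They are the 2 libraries with the most genes detected, and the part of this in the difference was not tested. They are also the whole early side at 0.2 Gy, so that leaving out either keeps the other, and the change at 0.2 Gy ran from -1.46 without 6 h to -0.88 without 4 h. With counts rescaled from TPM the difference between doses turned to 0.41.

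**Figure D3:**
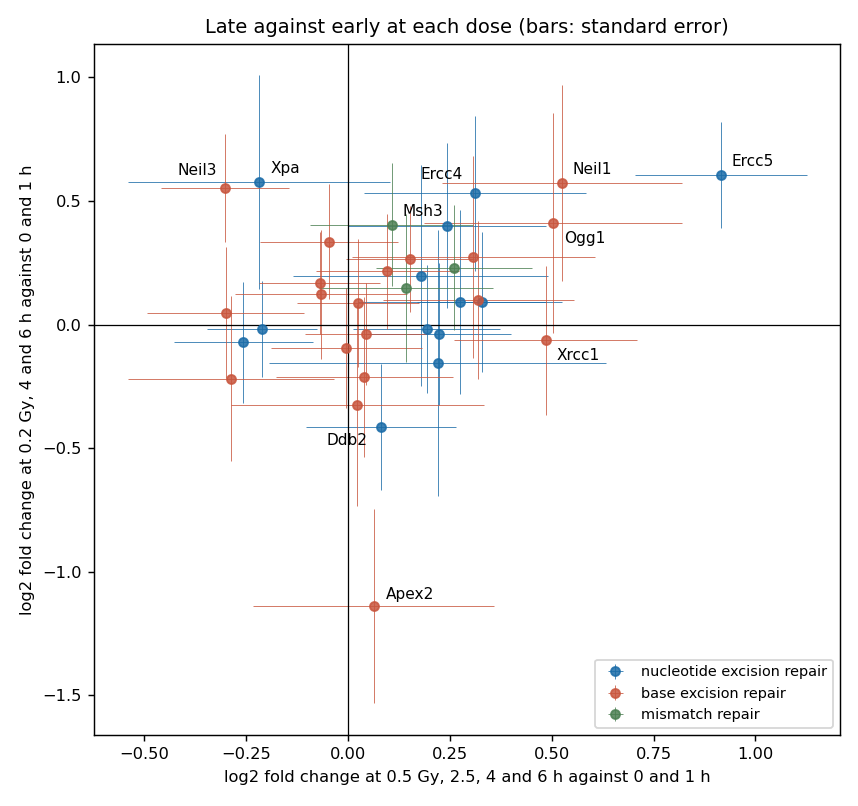
Log2 fold change of each member late against early at 0.5 Gy (horizontal axis, with 2.5 h on the late side) and at 0.2 Gy (vertical axis, without 2.5 h), with bars of 1 standard error and colours for the pathway. Ercc5 lies at the upper right (0.91 and 0.61), Neil3 at the upper left (-0.30 and 0.55) and Apex2 at the bottom (-1.14 at 0.2 Gy).

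The levels of the 2 sets of libraries, apart from time, were compared as 0.2 Gy against 0.5 Gy. No member was called, beside 0.284% of all genes (edgeR, with 5 of 35 members, or 14.3%, at an unadjusted p under 0.05 beside 15.6% of all genes, and 0 called by DESeq2). The lowest adjusted p were those of Apex2 (0.86, adjusted p = 0.174) and Ercc5 (-0.39, adjusted p = 0.193) in edgeR. Dose and generation cannot be told apart in these values.

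Side by side, the 3 pathways gave small medians. Late against early at 0.5 Gy, the median log2 fold change was 0.22 for nucleotide excision (10 of 13 higher), 0.040 for base excision (12 of 19 higher) and 0.14 for mismatch repair (3 of 3 higher), against -0.015 for all genes tested (10938 of 22588 higher). All members are protein-coding, and the median of the protein-coding genes tested was -0.00032 (8496 of 17010 higher). At 0.2 Gy the medians were 0.090, 0.10 and 0.23, against -0.031 for all genes and 0.022 for the protein-coding ones. In the 13-library fit they were 0.12, 0.053 and 0.10, against -0.022 for all genes and 0.0038 for the protein-coding ones. The mismatch median turned to -0.011 without the 4 h library of 0.2 Gy. The replicate SD of a pathway's median log2 level was 0.11 for nucleotide excision, 0.11 for base excision and 0.36 for mismatch repair (3 pairs of replicates). This SD describes the median level of a single library, not the error of a fold change between groups of libraries, so it gives no test of the medians. The nucleotide excision median at 0.5 Gy was -0.016 within the second generation alone. At 0.2 Gy it was 0.37 without the 0 h library and -0.036 without that of 1 h, and the base excision median was 0.21 without that of 0 h. Members that passed at any fold numbered 1 of 13, 0 of 19 and 0 of 3 (13-library fit, edgeR).

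**Figure D4:**
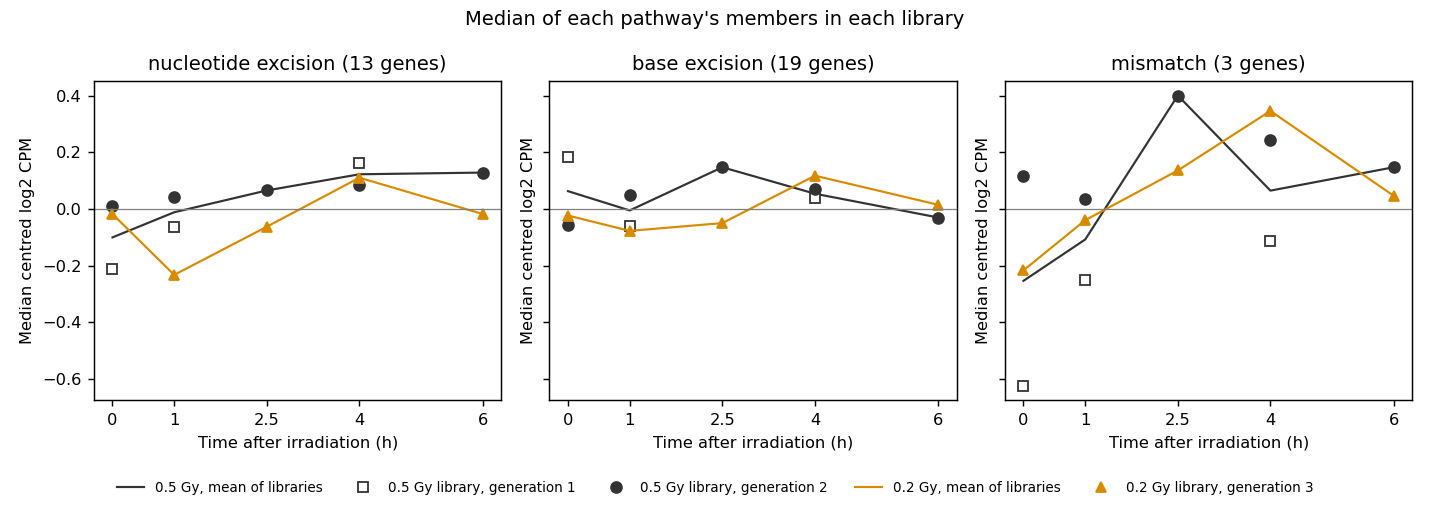
Median over the members of each pathway of the log2 CPM, centred on each gene's mean over the 13 libraries (vertical axis), against time after irradiation in hours, for each library. The nucleotide excision medians run from -0.23 to 0.16, the base excision medians from -0.078 to 0.18, and those of the 3 mismatch genes from -0.62 to 0.40, with the lowest in replicate 1 of 0 h at 0.5 Gy.

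Levels per length were summed over the members of each pathway, so that the sums grow with the number of genes. Summed TPM was 146 ± 14.2 for nucleotide excision, 440.1 ± 35.4 for base excision and 28.6 ± 5.52 for mismatch repair (SD, n = 13 libraries), and Parp2 alone held 192 TPM of the base excision sum. Transcripts under 500 bases, which few reads can credit with a high TPM, held over 50% of the summed TPM of 6 members (Parp2, Ercc1, Ercc2, Xpa, Xrcc1 and Xpc). By the transcript with most reads, the highest levels were those of Apex1 (29.4 TPM), Cetn2 (29.2 TPM), Ddb1 (18.1 TPM) and Polb (17.2 TPM), and the lowest that of Ercc2 (0.195 TPM). A further limit concerns 7 members, which shared over 10% of their 30-base sequences with another gene, so that their reads are uncertain. They were Fen1 (79.8%), Apex1 (57.4%), Tdg (47.3%), Ercc2 (34.4%), Lig3 (24.3%), Ddb2 (20.8%) and Msh6 (10.2%).

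**Figure D5:**
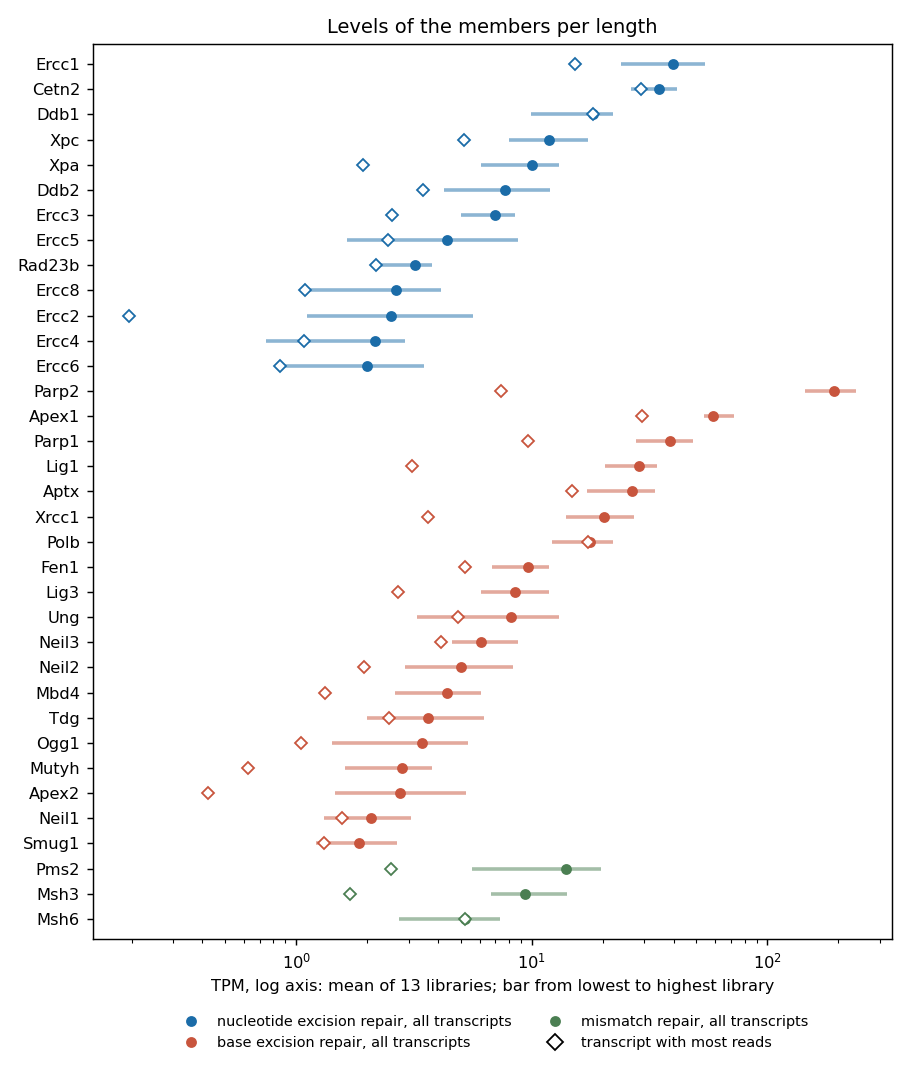
TPM of each member on a log axis, by pathway and in order of the mean. Filled circles are the mean over 13 libraries of all transcripts of the gene, bars run from the lowest to the highest library, and open diamonds are the mean of the transcript with most reads. Parp2 lies at 192 TPM by all transcripts and at 7.37 TPM by its main transcript, while Ddb1, Polb and Msh6 lie at nearly the same place by both.

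Other genes of these pathways gave no call. Of 14 further nucleotide excision genes, mostly subunits of TFIIH and of the CUL4 ligase, 10 were higher and 4 lower in the 13-library fit, and Uvssa had the largest change (0.23). Of 7 base excision genes 4 were higher, with Mpg, a glycosylase for alkylated bases, at 0.24. Of 3 mismatch genes 2 were higher, with Pms1 at 0.43. Of 17 genes of resynthesis (the PCNA clamp, its loader, RPA and the replicative polymerases) 8 were higher and 9 lower, with Pold4 at -0.33. None of these 41 genes passed an adjusted p of 0.05 at any fold in edgeR, and 2 had an unadjusted p under 0.05. Late against early at 0.5 Gy the largest change in size of each list was 0.42 for Xab2, 0.47 for Mpg, 0.36 for Pms1 and 0.50 for Pold1 in the same order, and the lowest values were -0.46 for Rpa3 and -0.44 for Pole2, with adjusted p from 0.478 to 0.696 in edgeR.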

How the data were processed

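RNA was taken from oocytes pooled from several ovaries for each time point, amplified and read in 30-base reads. Per the labels and the study's methods, the authors quantified transcripts with Salmon against Ensembl transcripts of GRCm38 and deposited, for each library, the estimated counts of reads and the TPM of every transcript. Whether the counting used strand is not given in the sources used here. Tables of the authors' own comparisons were not used.

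Estimated counts were summed per gene and rounded. Genes were filtered with filterByExpr, scaled by TMM and fitted with edgeR 4.0.16 (limma 3.58.1, R 4.3.3) by the quasi-likelihood test, with p-values adjusted over all genes tested by the Benjamini-Hochberg method. Calls needed an adjusted p under 0.05 together with a log2 fold change beyond 1 in either direction, and in the fit of all 13 libraries also at any fold. CPM were computed with the TMM scaling, and pathway medians used log2(CPM + 0.5). The fits were tested on simulated data. DESeq2 1.42.0, another scaling, no filter, counts rescaled from the deposited TPM, other sides, the generation as a block and leaving out each library were alternatives.

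The members and the further lists were chosen with earlier results of these data known. Values in every library were given for members called, Ddb2 and Xpc, the 3 members of each pathway with the largest change late against early at 0.5 Gy, and those with the highest and lowest mean TPM. Ercc8, Ung, Neil3, Apex2, Rpa3 and Pole2 were added after their values were seen. Promoter windows are those of RefSeq (GRCm38.p6). Xpc, Ercc3, Ddb2, Apex2, Neil2 and Polb had no window there.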

Additional observations from a re-analysis of the deposited data

How the results depend on the processing

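No member was called at a log2 fold change over 1 under any alternative run, in any of the 9 comparisons. Of 267 values that answer a comparison 258 moved by less than the replicate spread or by under 1.5 times, and 379 of 393 values of single genes kept their direction and side. Much of this was fixed beforehand. Counts of members called were 0 in the fits reported above and scored as unmoved when still 0. For mismatch repair the spread was 0.36, above each of its medians in those fits. Apart from Ercc5 in the 13-library fit, single genes failed the adjusted p there, and kept their side by failing again. The shares therefore do not measure how stable the results are. The number of members past the adjusted p at any fold in the fit of all 13 libraries was 1, but 0 with length-scaled counts and 0 to 1 without 1 library. There Ercc5 lay between 0.83 and 0.96 without 1 library, with adjusted p from 0.0144 to 0.119 (edgeR), and it was 0.79 with length-scaled counts, where the short transcripts weigh more. The nucleotide excision median at 0.5 Gy was -0.016 within generation 2, and without 1 library the medians at 0.2 Gy ran from -0.036 to 0.37 for nucleotide excision from 0.065 to 0.21 for base excision and from 0.12 to 0.40 for mismatch repair. At 0.5 Gy they ran from 0.14 to 0.31, 0.010 to 0.070 and 0.063 to 0.26, and in the 13-library fit from 0.10 to 0.20, 0.032 to 0.13 and -0.011 to 0.18. Changes that turned sign, for causes that were not tested, were those of Apex2 with length-scaled counts (0.62 at 0.2 Gy and 0.41 between doses), of Msh3 at 0.5 Gy with 0 h as the early side (-0.025) or with 4 and 6 h as the late side, the same fit as without 2.5 h (-0.043, with a range up to 0.26 over the fits without 1 library), of Ercc4 (-0.018) and Ddb2 (-0.16) within generation 2, and of Msh6 without 0 h replicate 1 (-0.027, with a range up to 0.25). With generation as a replicate block, Ercc5 at 0.5 Gy was 0.91 (adjusted p = 0.278, edgeR), with 18 genes called rather than 29, 13 rather than 9 for the difference between doses, and 0, 1, 6 and 7 rather than 0 at 1, 2.5, 4 and 6 h. Deviations of same-numbered replicates correlated at 0.171, 0.0939 and 0.157 over 28493 genes, which is low but positive each time. Whether this comes from the generation was not tested, and the block changed the call of no member. Without the block, Ercc5 in the 13-library fit was 0.91 (adjusted p = 0.0120, edgeR). Counts over all genes moved more: DESeq2 called 203 genes late against early at 0.5 Gy, 135 at 0.2 Gy, 114 for the difference between doses, 172 in the 13-library fit (298 at any fold) and 344 between doses in level, against 29, 13, 9, 35 (42) and 81 in edgeR, and 32, 108, 138 and 142 at 1, 2.5, 4 and 6 h against 0. Without the filter edgeR called 58, 32, 22, 60 and 143, and 30, 56, 80 and 78. At 0.5 Gy it called 9 genes with 0 h alone as the early side, 14 with 4 and 6 h as the late side, 11 within generation 2 and 10 to 37 without 1 library, at 0.2 Gy 28 with 2.5 h on the late side and 1 to 13 without 1 library, and without 1 library 13 to 35 in the 13-library fit, 0 to 13 for the difference between doses, 16 to 129 between doses in level and 0 to 4, 0 to 7, 0 to 10 and 0 to 6 at the times against 0 h. Depth limits the members of few reads most, such as Ercc2.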

Other observations

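Summed levels of the pathways in CPM were 598 ± 46.4 for nucleotide excision, 923 ± 50.8 for base excision and 171 ± 23.3 for mismatch repair (SD, n = 13 libraries), with the lowest mismatch sum, 127 CPM, in replicate 1 of 0 h at 0.5 Gy and the highest, 209 CPM, in the 4 h library of 0.2 Gy.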
